A study of Sparus aurata with 30 samples.

Results

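Head kidney RNA was compared between diets in gilthead sea bream (Sparus aurata), a fish of marine aquaculture. The tested diet held dried yeast left over from beer making, labelled SDY for spent dry yeast. Of the 30 RNA sequencing libraries in the series, 10 came from head kidney, and 8 of these were compared. The 5 SDY libraries, replicates 1 to 5, came from fish on a diet with the yeast at 30% inclusion, with plant protein (31.4%) and fish meal (10%) taken out in exchange. The 3 Control libraries, replicates 2, 4 and 5, came from fish on the control diet. Control replicate 1 was left out because it held 926 counts in all, and Control replicate 3 because it held liver transcripts. Every gene in the count tables was a candidate, and the comparison was SDY over Control. The labels used here give no strain, age or tank, so all p-values reflect only how specimens differed, and an effect of tank cannot be told apart from an effect of diet.

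The head kidney is the front part of the kidney of bony fish. It makes blood cells, much as bone marrow does in mammals, and holds developing B cells, granulocytes, macrophages and red cell precursors. It also contains the interrenal cells, which make cortisol, and the chromaffin cells, which make catecholamines. Yeast cell walls carry glucans and mannans, sugars that receptors of immune cells can bind, and yeast is rich in nucleic acids. Gene roles named here are those known from mammals, and levels are compared between libraries for 1 gene at a time.

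The 8 libraries held 14509798 to 18298869 counts on genes. The B cell and plasma cell list summed to 1939 to 2818 CPM (counts scaled to a common library total, without further correction for sums over lists) in SDY libraries and 1965 to 2342 CPM in Control libraries, against a median of 552 CPM over intestine and 737 CPM over liver libraries. The hepatocyte list summed to 98.9 to 168 CPM in SDY libraries and 89.2 to 110 CPM in Control libraries, against 27615 CPM in the Control replicate 3 that was left out. Within SDY, 3 libraries stood apart. Interrenal transcripts summed to 2669 and 1154 CPM in SDY replicates 3 and 4, while SDY replicates 1, 2 and 5 had 53.2 to 63.5 CPM and the Control libraries 33 to 50.3 CPM. Interferon response transcripts summed to 4634 CPM in SDY replicate 2, while the remaining SDY libraries had 1271 to 1980 CPM and the Control libraries 1223 to 1469 CPM. These 3 libraries lay at 33.3 to 58.8 on the first principal component of all genes, which held 29.4% of the variance, while the other 5 lay between -44.1 and -10.1. Lists and genes in which they stand out are described by their values in each library.

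Across the transcriptome, 1 gene passed the adjusted threshold. With edgeR's quasi-likelihood test, 17151 genes were tested and 1 (0.00583%) had a Benjamini-Hochberg adjusted p under 0.05; the next lowest adjusted p was 0.404. Without adjustment, 2020 genes (11.8%) had p under 0.05, with 1005 (5.86%) higher and 1015 (5.92%) lower under SDY. All 5 SDY libraries lay above all 3 Control libraries for 664 genes (3.87%) and below them for 658 (3.84%). DESeq2 on the same counts called 248 of 17856 genes (1.39%), 115 higher and 133 lower. Of these, 239 were tested by edgeR, and all 239 kept their direction there with an unadjusted p below 0.05. The median log2 fold change over all genes tested was 0.02, with quartiles at -0.14 and 0.23. Every named gene other than LOC115584268 had an edgeR adjusted p of 0.404 or above in this comparison. Such genes are described by their values in each library, and the count for each gene list stands beside these shares.

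LOC115584268, a gene without a name in the annotation, was lower in SDY than in Control libraries. It lies on the minus strand of chromosome 1 from 15955789 to 15964928 (assembly fSpaAur1.1), a span of 9140 bp that overlaps no other annotated gene. It had 0, 0, 0, 0 and 1 raw counts in SDY replicates 1 to 5, against 233, 302 and 214 counts in Control replicates 2, 4 and 5. Of the SDY libraries 4 of 5 held no read of it, while every Control library used held it at a moderate level. Per count sequenced, the SDY group was lower by a ratio of Control to SDY of 1430 (95% counting interval 256 to 56547). The fitted log2 fold change, which depends on the prior count when a group is near 0, was -9.85 (SE 0.47, edgeR adjusted p = 0.000268), and DESeq2 gave an adjusted p of 7.98e-23. It was the only gene in the files with at most 3 counts in every SDY library and at least 20 in every Control library used; 0 genes showed the reverse pattern. Control replicate 3 held 47 counts of it. With all 5 controls the gene did not pass the filter on low counts and was not tested.

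The gene was also read in intestine, at lower counts. Intestine held 77, 1, 0, 3 and 0 counts in SDY replicates 1 to 5, against 7, 12, 11, 13 and 0 counts in Control replicates 1 to 5. Liver held at most 2 counts in any library. One intestine library under SDY was thus the highest of its tissue, while 4 of 5 Control intestines held a few reads. The fitted diet effect in intestine was 0.79 (SE 0.91), and no fit left out that SDY library. The diet effect of head kidney minus that of intestine was -10.44 on the log2 scale (SE 1.68, edgeR adjusted p = 0.0332). Of 20296 genes tested for that difference, LOC115584268 alone (0.00493%) passed, and 7.05% had an unadjusted p under 0.05. The call was lost when any 1 of the 8 head kidney libraries was left out, with edgeR adjusted p between 0.0529 and 0.131 and differences between -11.47 and -10.24. The gene next to it, tbck, lies 325 bp away on the other strand and encodes a protein of growth signalling. It had 40.4, 39.1, 41.5, 34.3 and 44.1 CPM (scaled by TMM, edgeR's correction for composition, as for all single genes) in SDY replicates 1 to 5, against 52.2, 59.5 and 45.7 CPM in Control replicates 2, 4 and 5. Its groups did not overlap, with a log2 fold change of -0.40 (SE 0.11). The next gene beyond tbck, aimp1, had a log2 fold change of 0.12 (SE 0.12). On the other side of LOC115584268, the unnamed gene LOC115592157 lies 673 bp away, on the plus strand. It had 4266 to 8294 CPM in SDY libraries and 4354 to 7296 CPM in Control libraries, with a log2 fold change of -0.02 (SE 0.25). All of these neighbours were named after their values were seen.

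**Figure D1:**
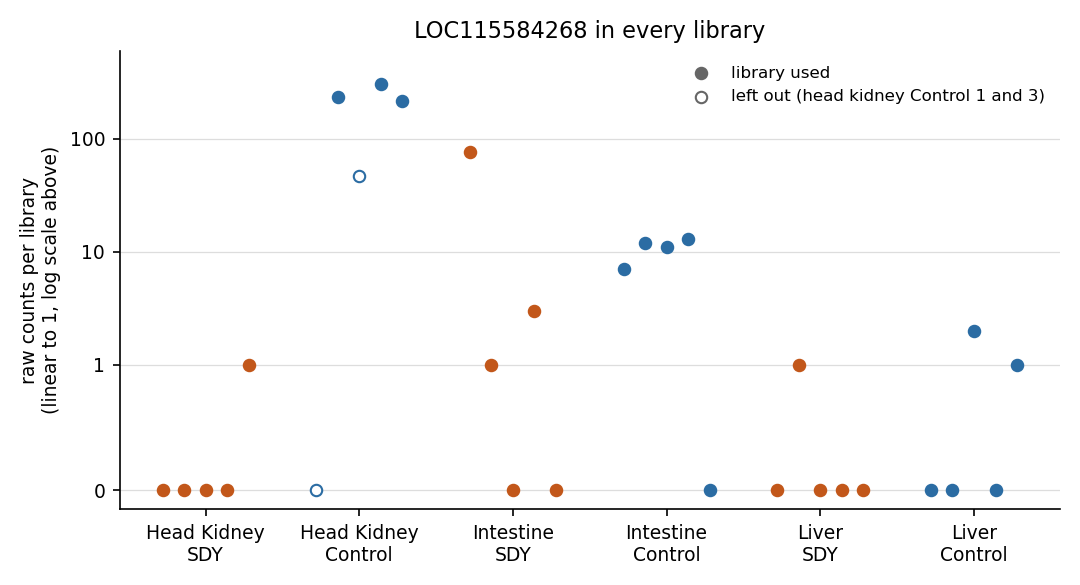
Raw counts of LOC115584268 in every library (y axis, linear up to 1 and logarithmic above) by tissue and diet; each point is 1 library, in replicate order within a group. The 5 head kidney SDY libraries lie at 0 or 1 and the 3 head kidney Control libraries used at 214 to 302 counts, and open points are the 2 head kidney Control libraries left out.

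Among named genes, the 10 with the smallest p that were higher under SDY included a Wnt receptor, a homeobox gene, an iron reductase, a basement membrane gene and an enzyme of amine synthesis. The Wnt receptor fzd3 (chromosome 22, 28514909 to 28538938) had 9.74, 8.92, 7.02, 4.09 and 5.86 CPM in SDY replicates 1 to 5, against 1.4, 2.28 and 1.13 CPM in Control replicates 2, 4 and 5. The lowest SDY library, replicate 4, still lay above the highest Control library. Its log2 fold change was 2.14 (SE 0.37), and DESeq2 gave an adjusted p of 0.000116. The metalloreductase gene steap2, whose product reduces iron and copper for uptake, had 14.4, 1.5, 7.13, 7.55 and 7.36 CPM in SDY libraries, against 0.442, 1.04 and 0.916 CPM in Control libraries. SDY replicate 1 was highest and replicate 2 lay just above the Control libraries. The log2 fold change of steap2 was 3.23 (SE 0.70). However, its span overlaps alg14, and reads on any stretch that both share cannot be told apart. The developmental transcription factor gene hoxc5 had 0.807, 0.359, 0.878, 0.943 and 0.941 CPM in SDY libraries, against 0.147, 0.13 and 0.141 CPM in Control libraries. SDY replicate 2 stood apart from the other SDY libraries, yet above all Control libraries. The level of hoxc5 was near the lower limit of detection in both diets, and DESeq2 did not call it (adjusted p of 0.0709). Basement membrane proteoglycan gene hspg2 was steady within each diet, with 12.3, 12, 12.5, 11.9 and 12.3 CPM in SDY libraries, against 8.47, 9.24 and 9.59 CPM in Control libraries. That is a log2 fold change of 0.42 (SE 0.10). The others were phldb3 (0.96), tmem108 (0.80), trib2 (0.59), rhob (0.76), dipk1b (1.69) and ddc (1.59), in log2 fold change. In all 10 the groups did not overlap, against 3.87% of all genes with all SDY libraries above. DESeq2 called 7 of them, against 1.39% of all genes. The 10 were picked for a small p in these same libraries, so neither count is separate support. With Control replicate 3 put back, phldb3, rhob and ddc turned to -0.08, -0.66 and -1.75 and hoxc5 was at 0.03, and that library held 22.2, 21.4, 21.3 and 2.07 CPM of them, measured on the plain library total.

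The 10 named genes with the smallest p that were lower under SDY included genes of signalling, endosome traffic and cell division. Zinc finger gene zbtb25 had 7.26, 8.15, 6.75, 6.45 and 9.3 CPM in SDY replicates 1 to 5, against 19.8, 17.5 and 13.5 CPM in Control replicates 2, 4 and 5. The groups stood well apart, with a log2 fold change of -1.16 (SE 0.17). For ppp1r26, a regulatory subunit of protein phosphatase 1, SDY libraries held 19.3, 19.8, 19.9, 18.7 and 21 CPM, against 27, 26.8 and 29.5 CPM in Control libraries. Its spread within each diet was narrow, and its log2 fold change was -0.49 (SE 0.08). The gene ibtk, named for inhibiting Bruton's tyrosine kinase of B cells, had 88.8, 79.3, 79.3, 85.5 and 80.8 CPM in SDY libraries, against 114, 112 and 106 CPM in Control libraries. Both groups were again tight, and its log2 fold change was -0.42 (SE 0.07). The endosome and lysosome genes vps39, a subunit of the HOPS tethering complex, and dmxl1, which acts in assembly of the vacuolar proton pump, were at -0.34 (SE 0.06) and -0.46 (SE 0.08). The spindle orientation gene gpsm2 had -0.51 (SE 0.10), and the syntaxin-binding gene stxbp5l -0.97 (SE 0.19). The rest were cuedc2 (-0.72), glipr2 (-1.53) and ldlrad3 (-0.92). In all 10 the groups did not overlap, against 3.84% of all genes with all SDY libraries below. DESeq2 called all 10, against 1.39% of all genes. These genes too were picked for a small p in the same libraries, so neither count is separate support.

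Immune genes were examined by list. Dendritic cells take up antigen and present it to T cells. Of 10 dendritic cell markers tested, 9 lay above 0, against 53.7% of all genes, and 5 had an unadjusted p under 0.05, against 5.86% of all genes in that direction. The list's median log2 fold change was 0.61. Summed over the list on plain library totals, SDY libraries held 844 to 1219 CPM and Control libraries 574 to 734 CPM, with no overlap. In bulk tissue, a change in the number of cells of a type and a change in RNA per cell cannot be told apart. None of the 10 passed the adjusted edgeR threshold. DESeq2 called 3 of them, namely cd83, ccl17 and irf8, against 1.39% of all genes.

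The gene cd83 encodes a surface protein of mature dendritic cells. It had 57.6, 96.5, 67.8, 91.7 and 61.6 CPM in SDY replicates 1 to 5, against 41.2, 47.5 and 42.6 CPM in Control replicates 2, 4 and 5. All SDY libraries lay above all Control libraries, with replicates 2 and 4 highest, and the log2 fold change was 0.78 (SE 0.19). The chemokine gene ccl17, which draws T cells, had 26.7, 64.5, 50.2, 66.4 and 45.3 CPM in SDY libraries, against 21.4, 27.9 and 25.4 CPM in Control libraries. Only SDY replicate 1 lay within the Control range, and the log2 fold change was 1.02 (SE 0.28). The transcription factor gene irf8, needed for dendritic cells and monocytes, had 173, 220, 220, 220 and 144 CPM in SDY libraries, against 115, 147 and 121 CPM in Control libraries. SDY replicate 5 overlapped the Control range, and the log2 fold change was 0.61 (SE 0.17). The growth factor receptor gene flt3, which acts in dendritic cell and progenitor development, had a log2 fold change of 0.71 (SE 0.24), with SDY replicates 1 and 2 highest at 396 and 470 CPM. For id2, a regulator of dendritic cell and innate lymphoid fates, it was 0.46 (SE 0.17). It turned to -0.17 with all 5 controls, and Control replicate 3, with liver transcripts, held 69 CPM of id2 on the plain library total.

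T cell genes lay above 0 in 7 of 7 members tested, against 53.7% of all genes. Their median log2 fold change was 0.60, and 1 of the 7 had an unadjusted p under 0.05, against 5.86% of all genes in that direction. That member was il7r, the receptor for a survival cytokine of lymphocytes. It had 47.8, 82.4, 53.9, 79.8 and 28.5 CPM in SDY replicates 1 to 5, against 36.9, 36.7 and 21.4 CPM in Control replicates 2, 4 and 5. SDY replicate 5 lay within the Control range, while replicates 2 and 4 were highest, and the log2 fold change was 0.88 (SE 0.36). The span of il7r overlaps capsl. The T helper regulator tbx21 followed the same libraries, with 51, 109, 68, 87.1 and 46.8 CPM in SDY libraries, against 43.1, 55.6 and 40.7 CPM in Control libraries, a log2 fold change of 0.64 (SE 0.28). Summed over the list, SDY libraries held 252 to 707 CPM and Control libraries 211 to 344 CPM, so the groups overlapped. In 0 of the 7 members did all SDY libraries lie above all Control libraries, against 3.87% of all genes. SDY replicate 4, a library with stress axis transcripts, was the highest of the 8 in 5 of 7 T cell members and 6 of 10 dendritic cell members, and the part of that tissue in these values was not tested. Without SDY replicates 2, 3 and 4, the T cell median was -0.03, with 2 of 7 members above 0. The dendritic cell median was then 0.15, with 7 of 10 members above 0.

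**Figure D2:**
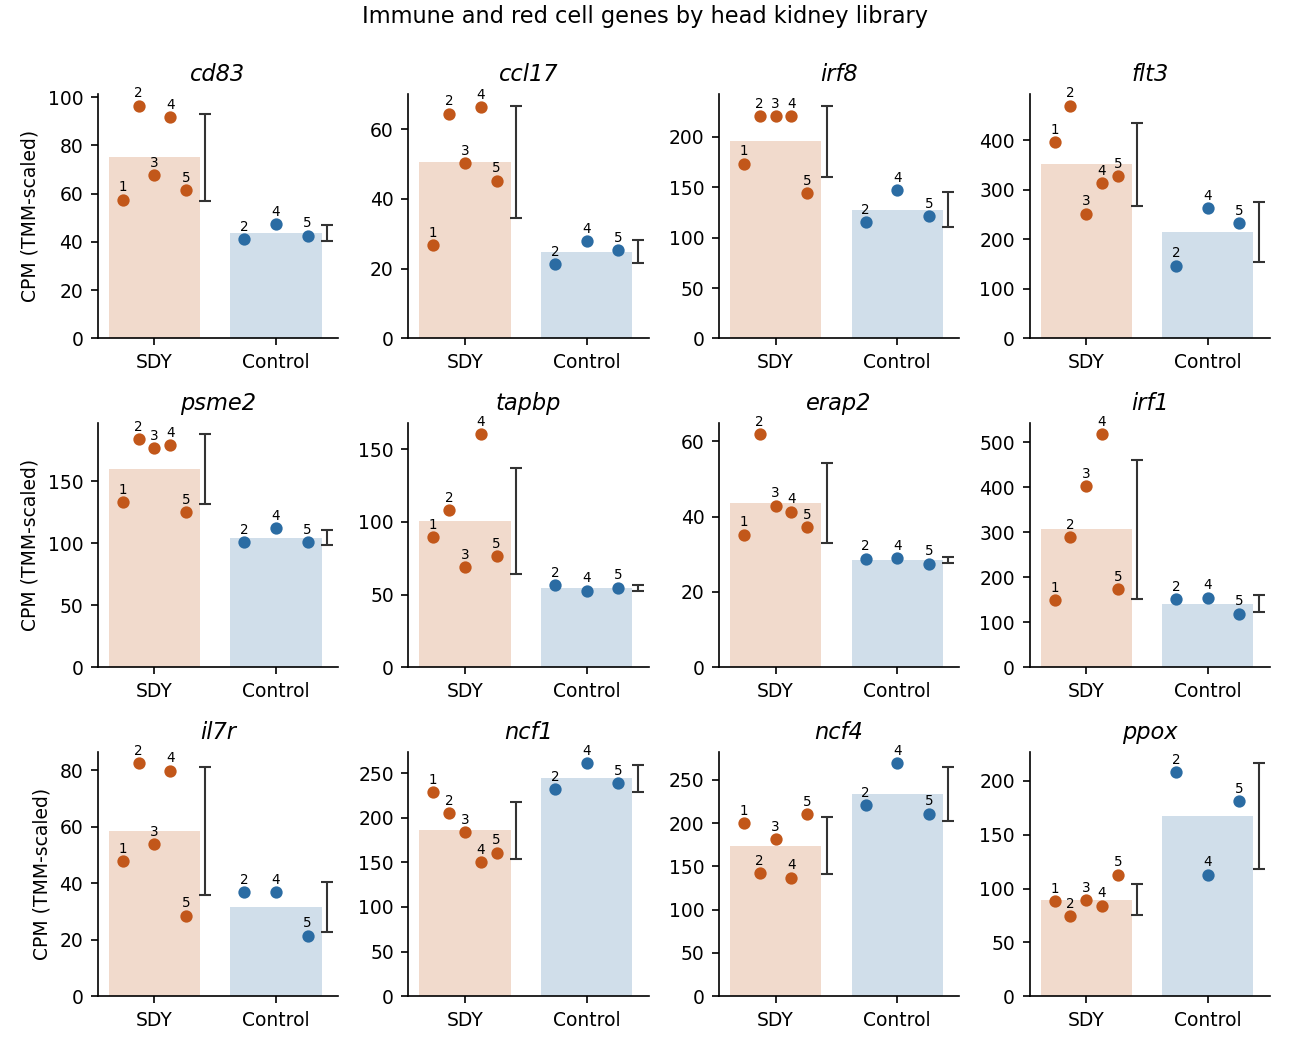
TMM-scaled CPM (y axis, from 0) of 12 immune and red cell genes in the SDY and Control libraries of head kidney; points are libraries with their replicate number, bars are means and whiskers SD (5 SDY and 3 Control libraries). For cd83, psme2, tapbp and erap2 all SDY points lie above all Control points, for ncf1 and ncf4 all lie below, and the other 6 genes overlap.

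Antigen presentation on MHC class I displays peptides from inside the cell to cytotoxic T cells. Of 13 such genes tested, 11 lay above 0, and 6 had an unadjusted p under 0.05, all higher under SDY, against 5.86% of all genes in that direction. In 5 members all SDY libraries lay above all Control libraries, against 3.87% of all genes. The median log2 fold change was 0.35, and the summed level was 2157 to 2855 CPM in SDY libraries and 1632 to 2059 CPM in Control libraries. Such sums are on plain library totals and leave out the TMM factors. Those factors were 0.999 to 1.052 in SDY libraries and 0.906 to 0.978 in Control libraries. Divided by its factor of 1.014, SDY replicate 1 (2157 CPM) is about level with Control replicate 4 (2053 CPM, factor 0.963). The summed ranges thus do not stand apart under TMM. The gene psme2, a subunit of the activator that opens the immunoproteasome, had 133, 184, 177, 179 and 125 CPM in SDY replicates 1 to 5, against 101, 112 and 101 CPM in Control replicates 2, 4 and 5. Replicates 2, 3 and 4 were the highest, and the lowest SDY library still exceeded every Control library. Its log2 fold change was 0.61 (SE 0.15), and its span overlaps lsm5. It was the 1 of 13 class I members that DESeq2 called, against 1.39% of all genes. The partner subunit psme1, which overlaps an unnamed gene, had a log2 fold change of 0.35 (SE 0.13).

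The peptide-loading chaperone gene tapbp (tapasin) had 89.6, 108, 68.7, 160 and 76.4 CPM in SDY libraries, against 56.6, 52.7 and 54.7 CPM in Control libraries. SDY replicate 4 was the highest and the groups did not overlap, with a log2 fold change of 0.88 (SE 0.26). The peptidase gene erap2, which trims peptides before loading, had 35.2, 61.8, 42.9, 41.3 and 37.2 CPM in SDY libraries, against 28.8, 28.9 and 27.5 CPM in Control libraries. Here SDY replicate 2 was highest, the Control libraries were nearly equal, and the log2 fold change was 0.62 (SE 0.18). The transcription factor gene irf1, which switches on class I genes, had 149, 289, 402, 517 and 174 CPM in SDY libraries, against 151, 155 and 119 CPM in Control libraries. SDY replicates 2, 3 and 4 were high while 1 and 5 lay near the Control libraries, and the log2 fold change was 1.11 (SE 0.41). Without SDY replicates 3 and 4 it was 0.52. Without SDY replicates 2, 3 and 4 the class I median was 0.13, with 10 of 13 members above 0.

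Proteasome genes, whose products cut proteins into peptides, showed small differences, mostly above 0. Of 36 tested, 32 lay above 0, against 53.7% of all genes, and 11 had an unadjusted p under 0.05, all higher under SDY, against 5.86% of all genes in that direction. In 8 members all SDY libraries lay above all Control libraries, against 3.87% of all genes. Their median log2 fold change was 0.25, and the summed level was 3611 to 4730 CPM in SDY libraries and 2546 to 3434 CPM in Control libraries. As for class I, these sums leave out the TMM factors. Divided by its factor of 1.014, SDY replicate 1 (3611 CPM) is about level with Control replicate 4 (3434 CPM, factor 0.963). These ranges thus do not stand apart under TMM. Core subunit gene psma1 had 130, 164, 136, 143 and 149 CPM in SDY replicates 1 to 5, against 90.4, 116 and 119 CPM in Control replicates 2, 4 and 5. Control replicate 2 was the lowest, and the log2 fold change was 0.41 (SE 0.12). Others among the 11 without overlap were the core genes psmb2 (0.38) and psmb3 (0.36), the ATPase gene psmc5 (0.32) and the assembly chaperone gene psmg2 (0.33), in log2 fold change. Control replicate 2 was the lowest of the 8 libraries in 28 of 36 members, and without it the median was 0.14 and 2 members had an unadjusted p under 0.05. SDY replicate 2 was the highest in 24 members. Without SDY replicates 2, 3 and 4 the median was 0.25, with 34 of 36 members above 0 and 3 with an unadjusted p under 0.05. DESeq2 called 1 of the 36, psme2, against 1.39% of all genes. The class I and proteasome lists share the activator genes psme1, psme2 and psme3.

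Interferon and antiviral genes were led by 1 library. Of 20 tested, 18 lay above 0, against 53.7% of all genes, and the median log2 fold change was 0.82. An unadjusted p under 0.05 was found for 3 (irf1, ifi35 and xaf1), against 5.86% of all genes in that direction, and for 0 without Control replicate 2 or without Control replicate 5. SDY replicate 2 was the highest of the 8 libraries in 16 of the 20. The RNA sensor gene dhx58 had 49, 439, 36.1, 36.8 and 20.3 CPM in SDY replicates 1 to 5, against 24.8, 31.6 and 15.4 CPM in Control replicates 2, 4 and 5. Its log2 fold change was 2.28 (SE 1.1), and 0.57 without SDY replicate 2. The gene ifi35, induced by interferon, had 65.6, 121, 73.2, 85 and 59 CPM in SDY libraries, against 50.7, 59.8 and 52.2 CPM in Control libraries. SDY replicate 5 alone overlapped, and the log2 fold change of 0.57 (SE 0.22) was 0.38 without SDY replicate 2. For xaf1, an interferon-induced cell death gene, the log2 fold change was 1.03 (SE 0.42), and 0.59 without that library. Without SDY replicate 2 the list's median was 0.33, with 18 of 20 members still above 0 and 4 with an unadjusted p under 0.05. Without SDY replicates 2, 3 and 4 it was 0.19, with 16 of 20 above 0 and none with an unadjusted p under 0.05. The B cell chemokine gene cxcl13 had 77.1 CPM in SDY replicate 2, while the other SDY libraries had 2.27 to 16.6 CPM and the Control libraries 1.82 to 4.5 CPM.

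**Figure D3:**
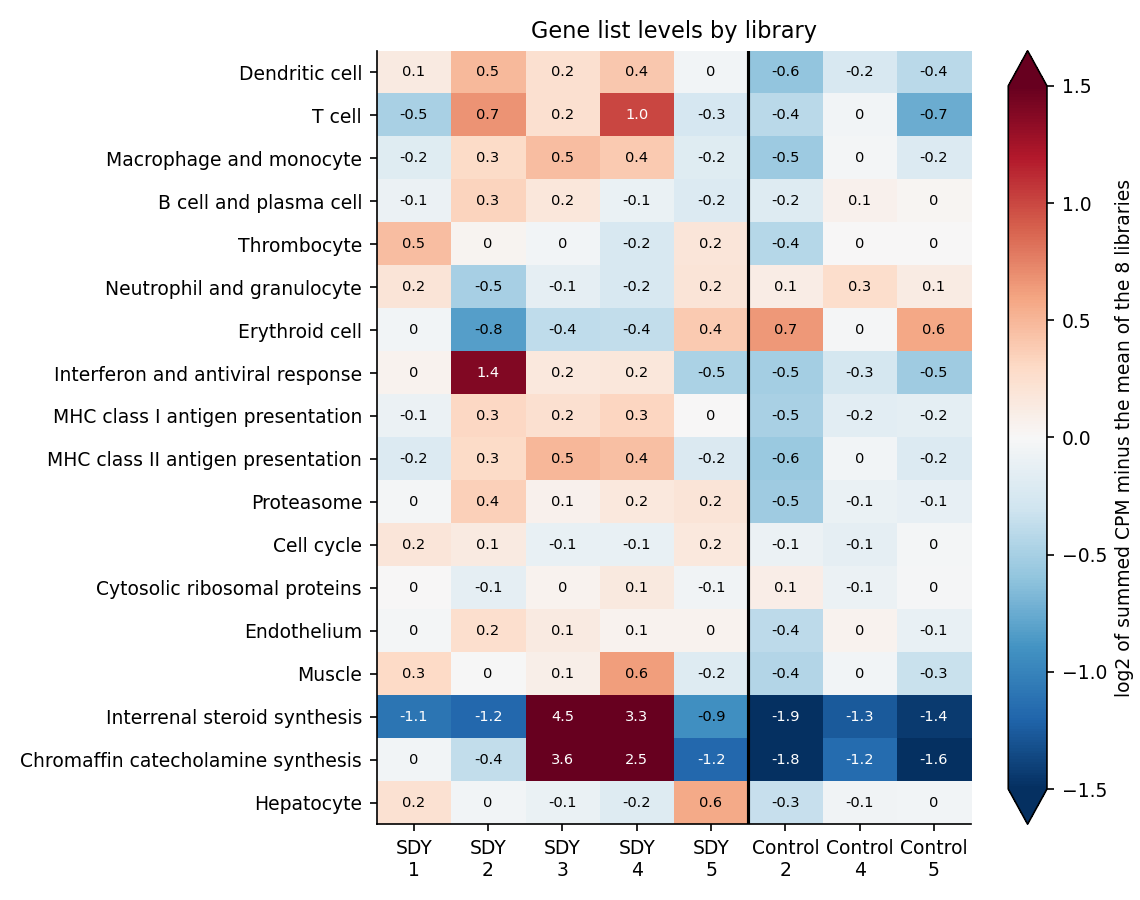
Summed level of 18 gene lists (rows) in the 8 head kidney libraries (columns, SDY left of the line, Control right of it), as log2 of the list's summed CPM minus its mean over the 8 libraries; red is higher and blue lower, and colours end at 1.5 in either direction. SDY replicate 2 stands out in interferon genes, SDY replicates 3 and 4 in interrenal and chromaffin genes, and Control replicate 2 is low in most immune lists and high in erythroid genes.

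Neutrophil and granulocyte genes lay below 0 in 10 of 12 members tested, against 46.3% of all genes. The median log2 fold change was -0.41, and 4 members had an unadjusted p under 0.05, all lower under SDY, against 5.92% of all genes in that direction. DESeq2 called 0 of the 12, against 1.39% of all genes. In 2 members all SDY libraries lay below all Control libraries, against 3.84% of all genes. In 1 member all lay above, against 3.87% of all genes. Members included ncf1 and ncf4, for cytosolic subunits of the NADPH oxidase that makes the oxidative burst. The gene ncf1 had 229, 205, 184, 150 and 161 CPM in SDY replicates 1 to 5, against 232, 261 and 239 CPM in Control replicates 2, 4 and 5. All SDY libraries lay below all Control libraries, though replicate 1 only just, and the log2 fold change was -0.39 (SE 0.14). The gene ncf4 had 200, 142, 181, 137 and 210 CPM in SDY libraries, against 221, 269 and 211 CPM in Control libraries. Its groups met at their edges without overlapping. The log2 fold change was -0.42 (SE 0.16), and the span of ncf4 overlaps an unnamed gene. The gene nccrp1, a receptor of nonspecific cytotoxic cells in fish, had -0.45 (SE 0.19).

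The summed neutrophil list was 2185 to 3530 CPM in SDY libraries and 3326 to 3703 CPM in Control libraries, so the groups overlapped. SDY replicate 2 was the lowest of the 8 libraries in 7 of the 12 members and Control replicate 4 the highest in 6. The 4 members at an unadjusted p under 0.05 became 1 without SDY replicate 4, 0 without Control replicate 4 and 0 on plain library totals, with medians of -0.34, -0.33 and -0.29. Without SDY replicates 2, 3 and 4 the median was -0.11, and none of the 12 had an unadjusted p under 0.05. With all 5 controls it was 0.03, and ncf1 and nccrp1 were at 0.05 and 0.02. Control replicate 3, with liver transcripts, held 33.9 CPM of ncf1 and 133 CPM of nccrp1 on the plain library total.

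Red cell genes lay below 0 in 14 of 15 members tested, against 46.3% of all genes, with a median log2 fold change of -0.71. Of these, 5 had an unadjusted p under 0.05, against 5.92% of all genes in that direction. In 0 of the 15 members did the groups stand apart, against 3.84% of all genes with all SDY libraries below and 3.87% with all above. DESeq2 called 1 of the 16 members it tested, ppox, against 1.39% of all genes. The 1 member above 0 was at 3.16. Its unadjusted edgeR p was under 0.05 without SDY replicate 1, 2 or 5, but not with all 8 libraries. Heme synthesis enzymes had the smallest p of the list. They build the oxygen-binding group of hemoglobin. The gene ppox, for the enzyme before the last step, had 88, 74.1, 89.4, 84.2 and 113 CPM in SDY replicates 1 to 5, against 208, 113 and 181 CPM in Control replicates 2, 4 and 5. SDY replicate 5 met Control replicate 4, while the other Control libraries were far above, and the log2 fold change was -0.90 (SE 0.20). For fech, the enzyme that inserts iron, SDY libraries held 36.4, 22.2, 34.8, 16.1 and 43.9 CPM, against 98.3, 33.6 and 60.6 CPM in Control libraries. The groups overlapped at Control replicate 4, and the log2 fold change was -1.06 (SE 0.39). The heme enzyme gene uros had -0.82 (SE 0.29), the red cell membrane genes dmtn and rhag -1.25 (SE 0.46) and -0.59 (SE 0.24).

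Erythroid levels followed single libraries. The summed list was 1421 to 3295 CPM in SDY libraries and 2485 to 3959 CPM in Control libraries, and the groups overlapped. SDY replicate 2 was the lowest library in 10 of 15 members and Control replicate 2 the highest in 11. Without Control replicate 2 the median was -0.43, with 1 member at an unadjusted p under 0.05. Without SDY replicates 2, 3 and 4 it was -0.39, with 12 of 14 members below 0. In the list of heme, hypoxia and iron handling, which shares heme enzymes such as ppox, 25 of 33 members lay below 0, against 46.3% of all genes. Its median was -0.29. An unadjusted p under 0.05 was found for 7 that were lower, against 5.92% of all genes, and 3 that were higher, against 5.86%. The list had 3 members with all SDY libraries below all Control libraries, against 3.84% of all genes, and 2 with all above, against 3.87%. Its member epo, the hormone that drives red cell production, had 0.403, 0.599, 0.603, 0.577 and 0.941 CPM in SDY replicates 1 to 5, against 1.18, 1.56 and 1.06 CPM in Control replicates 2, 4 and 5. That gene was near the lower limit of detection in both diets, its groups did not overlap, its log2 fold change was -1.01 (SE 0.34), and its span overlaps pop7. The iron sensor gene ireb2 and the hypoxia-regulated kinase gene pdk1 had -0.18 (SE 0.07) and -0.29 (SE 0.11), and bmp6, which induces hepcidin, had 0.42 (SE 0.13), with no overlap in these 3. The span of bmp6 overlaps txndc5 and an unnamed gene. The value of bmp6 turned to -0.14 with all 5 controls, and Control replicate 3, with liver transcripts, held 19.1 CPM of it on the plain library total.

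**Figure D4:**
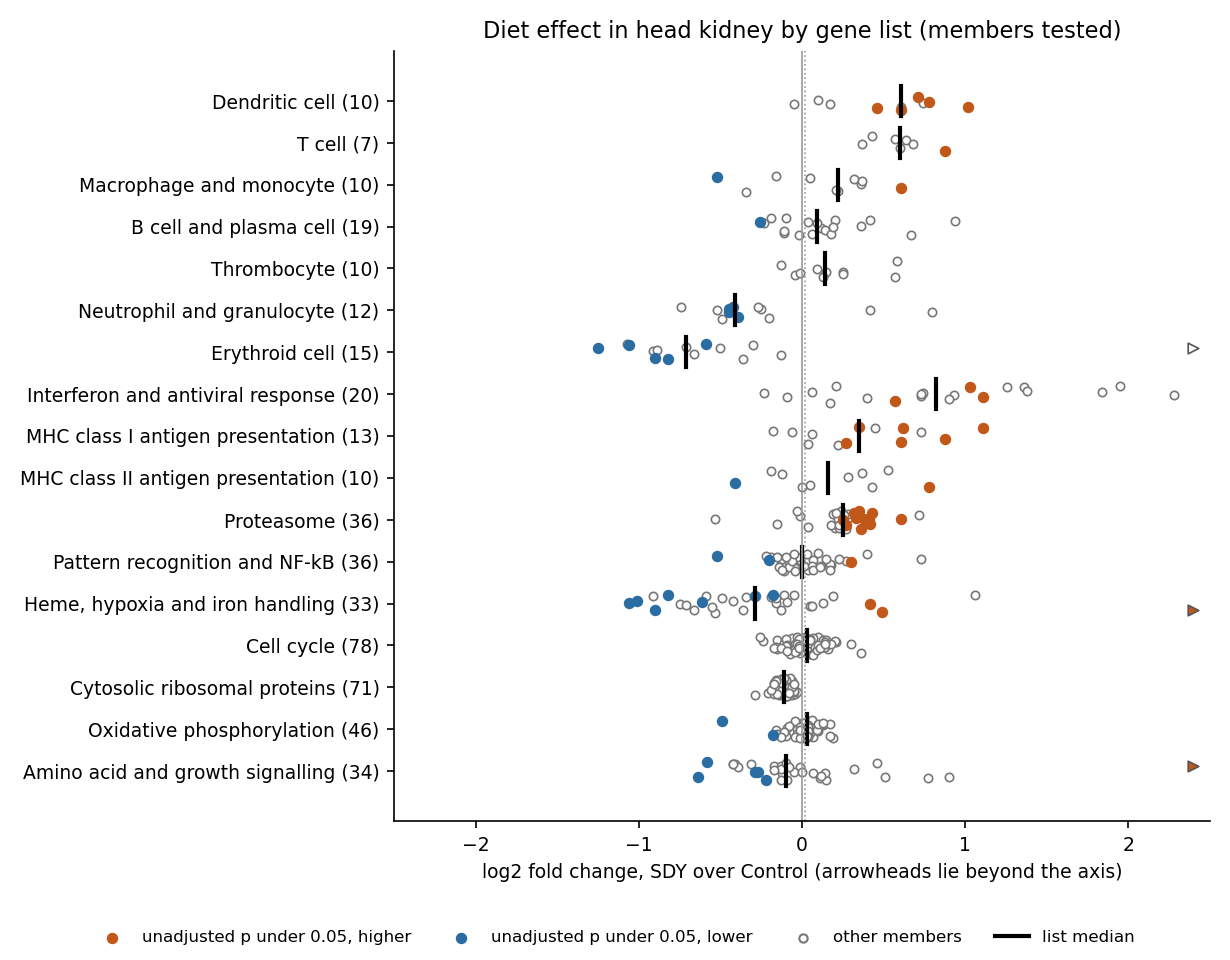
Log2 fold change of SDY over Control (x axis) for each tested member of 17 gene lists (rows, with the number of members); filled points had an unadjusted edgeR p under 0.05, orange where higher and blue where lower, black bars are list medians, and the dotted line is the median of all genes at 0.02. Dendritic cell, T cell, interferon, class I and proteasome medians lie to the right of 0, neutrophil and erythroid medians to the left.

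The remaining immune lists had at most 3 members each at an unadjusted p under 0.05, in either direction. As shares of members tested, against 11.8% of all genes, these were 20% for macrophage and class II genes and 16.7% for antimicrobial genes. They were 11.5% for cytokine, 8.33% for pattern recognition, 5.26% for B cell and 0% for thrombocyte and complement genes. B cell and plasma cell genes had a median log2 fold change of 0.09, with 12 of 19 above 0. The plasma cell regulator xbp1 had 626, 536, 563, 495 and 665 CPM in SDY replicates 1 to 5, against 707, 694 and 669 CPM in Control replicates 2, 4 and 5. The groups did not overlap, the log2 fold change was -0.26 (SE 0.11), and the span overlaps ccdc60. Macrophage and monocyte genes had a median of 0.22 (7 of 10 above 0), thrombocyte genes 0.14 (7 of 10), class II presentation genes 0.16 (6 of 10) and cytokine genes 0.16 (17 of 26). Antimicrobial and iron withholding genes had a median of -0.48, with 5 of 6 below 0 and steap2 above, and -0.04 without Control replicate 2. The flagellin receptor gene tlr5 had a log2 fold change of -0.52 (SE 0.19), with 13.5 to 24.8 CPM in SDY libraries and 23.7 to 30.6 CPM in Control libraries. In class II, marchf1, a ubiquitin ligase that removes class II molecules from the surface and overlaps tma16, had -0.41 (SE 0.13), and its groups did not overlap. Pattern recognition and NF-kB genes split evenly, 18 above and 18 below 0, with a median of 0.00. There the adaptor gene traf3 had 0.30 (SE 0.11) and the NF-kB subunit gene rel -0.20 (SE 0.08). The value of rel turned to 0.20 with all 5 controls, and Control replicate 3, with liver transcripts, held 41.8 CPM of it on the plain library total.

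Transcripts of the stress axis were uneven over the SDY libraries. All 5 interrenal steroid genes tested lay above 0, with a median of 2.69, or 0.20 without SDY replicates 3 and 4. The gene star, which carries cholesterol into mitochondria for cortisol synthesis, had 10.2, 7.37, 1623, 630 and 11.2 CPM in SDY replicates 1 to 5, against 1.4, 6.44 and 5.15 CPM in Control replicates 2, 4 and 5. Replicates 3 and 4 exceeded all others by far, and the other 3 SDY libraries lay just above the Control libraries. The log2 fold change of 6.71 (SE 2.36) was 1.14 without that pair. For the steroid dehydrogenase gene hsd3b1 it was 6.99 (SE 2.33), and 1.75 without the pair, with 4.5, 2.93, 467, 258 and 4.2 CPM in SDY libraries and 0.737, 1.56 and 1.13 CPM in Control libraries. The electron carrier gene fdx1 had 2.69 (SE 1.13), and 0.20 without the pair. Chromaffin genes were high in the same libraries, summing to 253 and 111 CPM in SDY replicates 3 and 4, while the other SDY libraries had 8.94 to 19.6 CPM and the Control libraries 5.87 to 9.08 CPM.

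Catecholamine genes were also present in SDY replicates 1 and 2. The gene th, for the first enzyme of the pathway, had 2.82, 1.74, 17.4, 9.59 and 0 CPM in SDY replicates 1 to 5, against 0.0737, 0.13 and 0 CPM in Control replicates 2, 4 and 5. SDY replicate 5 alone was at 0, and summed over the libraries SDY exceeded Control by a ratio of 101 (95% counting interval 34.4 to 492) on 579 and 3 counts. The adrenaline-forming enzyme gene pnmt had 4.09, 3.17, 13.2, 7.49 and 0.0553 CPM in SDY libraries, against 0, 0.26 and 0.0705 CPM in Control libraries. The pattern over libraries was that of th. Without SDY replicates 3 and 4 the ratio was 23.1 (7.63 to 115) for th and 22.2 (9.28 to 69.7) for pnmt. Counting intervals in this paragraph cover counting error only and not the spread between fish. The 78 SDY counts of th came from 2 libraries, and edgeR tested neither gene without this pair. For dbh the log2 fold change was 3.28 (SE 1.14), and 1.5 without the pair, and for the granule gene scg3 6.74 (SE 2.4), and 1.70 without it, with 182 and 65 CPM of scg3 in SDY replicates 3 and 4. DESeq2 called 5 of 19 chromaffin genes it tested (pnmt, scg3, th, dbh and ddc). It called 2 of 5 interrenal genes (hsd3b1 and star), against 1.39% of all genes. The growth factor gene igf1 followed the same pair of libraries, with 29.7 and 12.6 CPM in SDY replicates 3 and 4, while the other SDY libraries had 0.18 to 0.719 CPM and the Control libraries 0.0737 to 0.325 CPM. Control replicate 3, which was left out, held 226 CPM of igf1. Without the pair the summed ratio of SDY to Control for igf1 was 2.78 (95% counting interval 1.22 to 7.13). How much interrenal and chromaffin tissue was dissected with each sample was not measured, and its part in these values was not tested.

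Metabolic lists lay near 0. Oxidative phosphorylation had a median log2 fold change of 0.03 (28 of 46 above 0), sterol and fatty acid synthesis -0.01 (13 of 27), and fatty acid oxidation with peroxisomes -0.03 (19 of 47). Purine and pyrimidine metabolism, the list nearest to the nucleic acid content of yeast, had 0.08 (18 of 28). Within it the adenine salvage gene aprt had 19.7, 19.8, 21.4, 19 and 28.9 CPM in SDY replicates 1 to 5, against 11.4, 16 and 17.3 CPM in Control replicates 2, 4 and 5, without overlap, and a log2 fold change of 0.54 (SE 0.19). The purine synthesis gene pfas, which overlaps an unnamed gene, had 0.22 (SE 0.09). Pyrimidine nucleotidase gene nt5c3a, which is active in maturing red cells, had 61.4, 55.3, 48.5, 71 and 103 CPM in SDY libraries, against 111, 122 and 120 CPM in Control libraries. All SDY libraries lay below, replicate 5 by the least, and the log2 fold change was -0.79 (SE 0.22). The citrate-cleaving enzyme gene acly and the fatty acid elongase gene elovl6 had 0.94 (SE 0.26) and 0.58 (SE 0.21) with no overlap, but with all 5 controls acly turned to -0.39 and elovl6 was at 0.02. Control replicate 3, with liver transcripts, held 50.2 CPM of acly and 45.4 CPM of elovl6 on the plain library total. The Control libraries used held 7.66 to 12.1 CPM and 17 to 23.3 CPM.

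Growth and protein synthesis genes showed the following values. Amino acid and growth signalling genes had a median log2 fold change of -0.10 (22 of 34 below 0, against 46.3% of all genes). An unadjusted p under 0.05 was found for 5 that were lower, against 5.92% of all genes, and for igf1, which was higher. The translation repressor gene eif4ebp2 had 104, 114, 113, 111 and 101 CPM in SDY replicates 1 to 5, against 137, 135 and 127 CPM in Control replicates 2, 4 and 5. The groups were tight and separate, with a log2 fold change of -0.29 (SE 0.07). The autophagy kinase gene ulk1 and the mTOR inhibitor gene tsc2, which overlaps nthl1, had -0.58 (SE 0.15) and -0.27 (SE 0.09), also without overlap. Ribosomal protein genes all lay below 0, 71 of 71, but by a median of only -0.11 and with 0 at an unadjusted p under 0.05. SDY replicate 2 was the lowest library for 67 of them and Control replicate 2 the highest for 67. On plain library totals in place of TMM their median was 0.02, and with all 5 controls 0.20. Cell cycle genes had a median of 0.03 (44 of 78 above 0), and 0.35 with all 5 controls. Their sum was 854 CPM in Control replicate 3, which held liver transcripts, against 4199 to 4517 CPM in the Control libraries used. The glucocorticoid receptor gene nr3c1 had 85.4, 63.2, 78, 66.8 and 84.1 CPM in SDY libraries, against 122, 90.7 and 99.4 CPM in Control libraries, without overlap, and a log2 fold change of -0.46 (SE 0.14). Its list, immediate early and glucocorticoid response genes, had a median of 0.18, with 24 of 30 members above 0. There an unadjusted p under 0.05 was found for 4 that were higher, against 5.86% of all genes. It was found for 3 that were lower, against 5.92%.

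Separate groups in structural and stress lists stand against 3.87% of all genes with all SDY libraries above and 3.84% with all below. They were found for 1 of 18 endothelium, 1 of 24 extracellular matrix, 1 of 5 adipocyte and 1 of 27 chaperone genes. ER stress and antioxidant genes, with 40 and 32 tested, each had 1 above and 1 below. Endothelium genes had a median log2 fold change of 0.22 (16 of 18 above 0, against 53.7% of all genes). The junction gene cdh5 was at 0.35 (SE 0.14) and the vessel gene egfl7 at -0.56 (SE 0.23). An unadjusted p under 0.05 was found for 11.1% of endothelium and 20.8% of extracellular matrix genes, against 11.8% of all genes. Extracellular matrix genes had a median of 0.22 (19 of 24), with the protease inhibitor genes timp3, which overlaps syn3, at 0.64 (SE 0.26) and timp2 at -0.56 (SE 0.20). The fat-mobilising lipase gene lipe had 50.6, 46.5, 55.2, 52.7 and 53.3 CPM in SDY replicates 1 to 5, against 65.1, 81.3 and 63.8 CPM in Control replicates 2, 4 and 5. All SDY libraries lay below all Control libraries. The log2 fold change of lipe was -0.44 (SE 0.10), and DESeq2 called it. Adipocyte genes had a median of -0.37 (4 of 5 below 0), and lipe was the 1 member with an unadjusted p under 0.05. Chaperone genes had a median of 0.04 (19 of 27), with the mitochondrial chaperone gene hspd1 at 0.51 (SE 0.18). ER stress genes had a median of 0.09 (28 of 40), with the cysteine synthesis gene cth at 0.23 (SE 0.09), and antioxidant genes 0.01 (16 of 32).

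Head kidney was set against the other tissues by the difference of the diet effects. Besides LOC115584268 against intestine, 2 of 20296 genes (0.00985%) passed against liver, where 6.24% had an unadjusted p under 0.05. The AP-1 transcription factor gene fosl2 had a diet effect of -0.40 (SE 0.34) in head kidney and 2.69 (SE 0.32) in liver, a difference of -3.08 (SE 0.46, edgeR adjusted p = 0.00904). It passed without any 1 of the 8 head kidney libraries, at an edgeR adjusted p of 0.0472 or below. The other was c8h12orf75, with a fitted difference of 7.72 (SE 1.29, edgeR adjusted p = 0.0435). It had 0.519, 1.26, 1.26, 1.15 and 0 CPM in SDY replicates 1 to 5 of head kidney, against 0, 0 and 0 CPM in Control replicates 2, 4 and 5, so 4 of 5 SDY libraries and no Control library held reads. Summed, SDY was at least 13.1-fold higher, from 75 counts against a floor of 3 counts over the Control group. Control replicate 3, which was left out, held 10.6 CPM of it, and with all 30 libraries the difference was -0.62. The call held without SDY replicate 5 but was lost without any other single head kidney library, at an edgeR adjusted p of 0.0528 to 0.203. Differences between tissues in list medians were not tested. The proteasome gene medians were 0.25 in head kidney, 0.39 in intestine and 0.48 in liver, for interferon genes 0.82, 0.44 and 0.53, for dendritic cell genes 0.61, 0.12 and 0.26, for neutrophil genes -0.41, -0.23 and -0.06, and for erythroid genes -0.71, -0.22 and -0.23.

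The choice of libraries moved some lists more than others. With all 5 controls the T cell median was 0.88 and the dendritic cell median 0.85, while the neutrophil, ribosomal and cell cycle medians were 0.03, 0.20 and 0.35. That choice puts back Control replicate 3, which held liver transcripts. It had 74.7 CPM of T cell and 324 CPM of dendritic cell genes, against 211 to 344 and 574 to 734 CPM in the Control libraries used. The choice is thus no separate check on lists of head kidney cells. The proteasome median ranged from 0.14 to 0.31 when each of the 8 libraries was left out in turn, and without Control replicate 2 the erythroid median was nearest to 0, at -0.43. Interferon genes ranged from 0.33 to 1.02 and dendritic cell genes from 0.47 to 0.71. Under each of the choices plotted, the proteasome, interferon, class I and dendritic cell medians were above 0, and the erythroid and heme medians below 0.

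**Figure D5:**
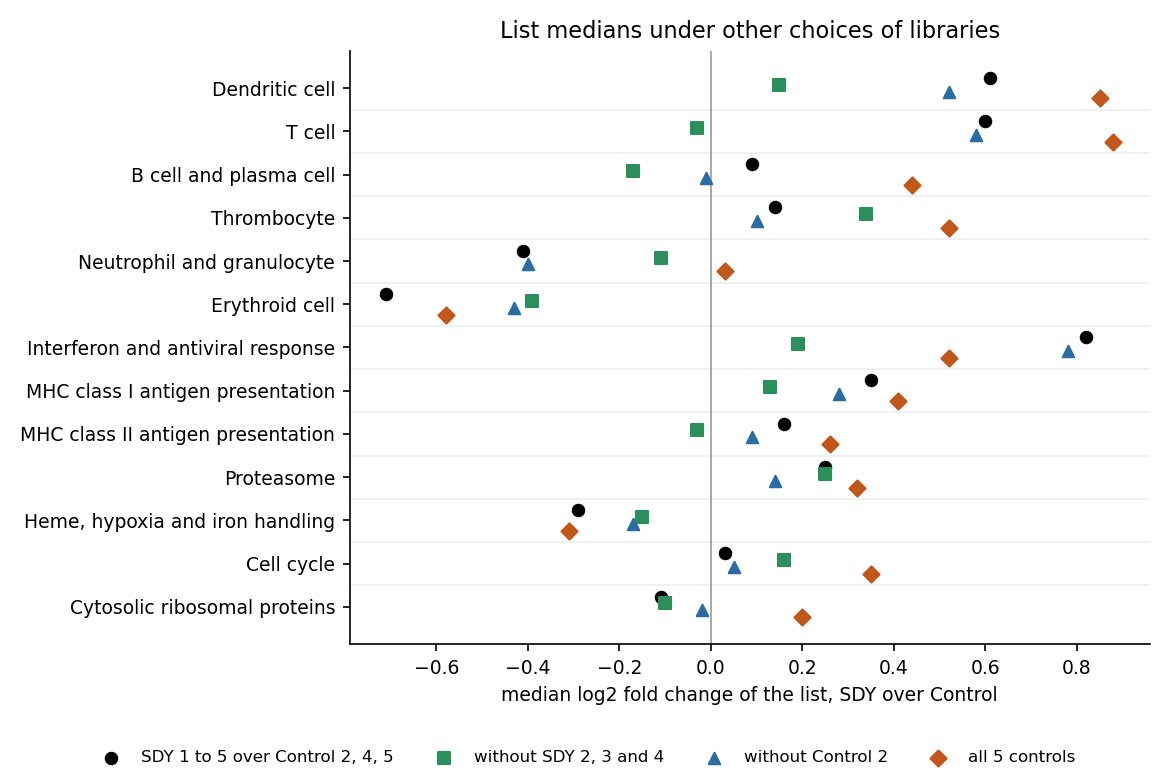
Median log2 fold change of SDY over Control (x axis) of 13 gene lists (rows) with the 8 libraries (circles), without SDY replicates 2, 3 and 4 (squares), without Control replicate 2 (triangles) and with all 5 controls (diamonds). The T cell median lies at 0.60, -0.03, 0.58 and 0.88 in that order, and the erythroid median at -0.71, -0.39, -0.43 and -0.58.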

How the data were processed

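Per the file headers, the authors counted reads on genes of assembly fSpaAur1.1 with featureCounts 1.5.3, and the deposited values are raw counts per gene. Their headers show that a read over several genes was counted for each, with no strand option. Reads on stretches shared by overlapping genes thus cannot be told apart. The spans of 15.3% of 25722 genes, from first to last base, overlap another gene. Overlap of the counted parts alone was not examined. The submitters' processing notes also name Trim Galore 0.4.4, FastQC, HISAT2 2.1.0 and DESeq2. The labels describe poly(A) libraries from 5 randomly chosen fish per diet and tissue.

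From the counts, edgeR 4.0.16 (R 4.3.3) tested SDY over Control by quasi-likelihood, with its filter on low counts, TMM scaling and Benjamini-Hochberg adjustment over all genes tested, and a threshold of 0.05. Differences of diet effects between tissues came from 1 fit of 28 libraries. SE is the log2 fold change divided by the square root of the test's F. CPM was computed here. Alternatives were DESeq2 1.42.0, limma 3.58.1, other scalings and filters, a replicate block and other choices of libraries; dropping SDY replicates 2, 3 and 4 together and plain library totals were added after seeing the data. Counting intervals are 95% and, like the floor of 3 counts, cover counting error only. The script was tested on simulated counts.

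Members and gene lists were chosen with earlier results of these data known. Lists hold genes by symbol, and 15526 genes carry no symbol, so lists are partial. The rule named the 10 genes with a symbol and the smallest p in each direction, the member of each list with the smallest p (2 for immune lists), and list members with an unadjusted p under 0.05 and groups that did not overlap. The genes tbck, aimp1, c8h12orf75, fosl2, fdx1, pnmt, th, dbh, scg3, igf1, dhx58, xaf1, flt3, id2, fech, dmtn, rhag, nccrp1, cxcl13 and psme3 were named after their values were seen. The unnamed gene LOC115592157 was added in the same way. Not every gene that the rule names is described. No sequence table was used here.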

Additional observations from a re-analysis of the deposited data

Results flagged for a closer look

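In 145 groups of per-library values, 15 libraries stood far from the rest of their group. All 15 were SDY libraries, each set against the other SDY libraries. The absence of Control flags does not mean that the Control libraries were even. Control replicate 2 was the lowest of the 8 libraries in 28 of 36 proteasome genes and the highest in 67 of 71 ribosomal protein genes. Chance flags about 1 in 20 groups of independent values; these groups share the same libraries, and some genes were named after their values were seen. SDY replicate 2 accounted for 8 of the 15. It was high in the interferon list (4634 CPM summed, other SDY libraries 1271 to 1980), dhx58 (439 CPM, others 20.3 to 49), xaf1 (57.7 CPM, others 15.4 to 23.5), cxcl13 (77.1 CPM, others 2.27 to 16.6) and elovl6 (44.9 CPM, others 24.5 to 28.1). It was low in hoxc5 (0.359 CPM, others 0.807 to 0.943), rpl7a (2141 CPM, others 2374 to 2434) and ndufa4 (126 CPM, others 139 to 140). SDY replicate 1 was high in c9, which overlaps dab2 (33.9 CPM, others 19.6 to 23.1), and in the exocrine pancreas list (13.7 CPM, others 0.441 to 0.874). SDY replicate 4 was high in acta2 (56.5 CPM, others 10 to 18.3) and fosb (2.57 CPM, others 1.22 to 1.56). SDY replicate 5 was high in aprt (28.9 CPM, others 19 to 21.4), in psme3 (57.7 CPM, others 47 to 49) and, by a single count, in LOC115584268 (0.0553 CPM, others 0).

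The difference of diet effects between tissues passed edgeR's test for 3 genes with the libraries used. Head kidney minus intestine was -10.44 for LOC115584268 (SE 1.68, adjusted p = 0.0332). Head kidney minus liver was -3.08 for fosl2 (SE 0.46, adjusted p = 0.00904) and 7.72 for c8h12orf75 (SE 1.29, adjusted p = 0.0435). The call of LOC115584268 was lost without any 1 head kidney library. That of c8h12orf75 was lost without any single one except SDY replicate 5, and its difference was -0.62 with all 30 libraries. Control replicate 3 of head kidney, not used in the comparison, held 27615 CPM of hepatocyte transcripts, against 89.2 to 110 CPM in the Control libraries used.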

How the results depend on the processing

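The count of genes that passed in head kidney, 1, was 248 with DESeq2. With edgeR it was 0 with the replicate block, 0 with all 5 controls and 0 with Control replicate 1 put back, where 1682, 1774 and 1546 genes had an unadjusted p under 0.05. It was 1 to 2 when each library was left out, the 2 without Control replicate 4 (LOC115578631 added, 2.15, adjusted p = 0.0254). Whether replicate numbers pair the libraries cannot be settled from so few libraries. Same-numbered libraries correlated at -0.01, 0.18 and 0.11 in their deviations, and other combinations at -0.15 to 0.05. Control replicates 4 and 5 correlated best with their own number, and Control replicate 2 did not. Under the replicate block LOC115584268 was at -9.37 (edgeR adjusted p = 0.331); over the alternatives in which it was tested the adjusted p was 7.98e-23 to 0.331. Its direction held in all of these. Head kidney minus intestine, 1 gene, gave 208 with all 30 libraries, 4 with the replicate block within tissue (LOC115584268 at -8.26, adjusted p = 0.426) and 0 to 2 when libraries were left out (1072 to 1716 at an unadjusted p under 0.05); the 2 came without SDY replicate 5 and did not include LOC115584268. Head kidney minus liver, 2 genes, gave 476, 0 (1202 at an unadjusted p under 0.05) and 1 to 2 under the same choices; under the replicate block fosl2 was at -2.87 (adjusted p = 0.0916) and c8h12orf75 at 7.51 (adjusted p = 0.109). The cause was not tested.

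Of 105 named genes, 15 turned direction somewhere. With all 5 controls these were phldb3 (-0.08), rhob (-0.66), ddc (-1.76), acta2 (-0.30), acly (-0.39), hlf (-0.22), bmp6 (-0.14), id2 (-0.17), xbp1 (0.01), ncf1 (0.05), rpl7a (0.15), rel (0.20) and nccrp1 (0.02). With Control replicate 3 alone put back they were phldb3 (-0.08), rhob (-0.66), ddc (-1.75), acta2 (-0.30), acly (-0.39), hlf (-0.23), bmp6 (-0.14), id2 (-0.18), rel (0.10), c8h12orf75 (-2.04) and igf1 (-3.09). With Control replicate 1 put back rpl7a was at 0.10.

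Plain library totals raised the median of all genes by 0.12, and 84.1% of genes with an unadjusted p under 0.05 were then higher under SDY, against 49.8% with TMM; the share was 37.5% with all 5 controls, 38.5% with Control replicate 3 put back, 62.5% with Control replicate 1 put back and 67.3% with the spread taken from 28 libraries. Genes with an unadjusted p under 0.05 numbered 2020, against 991 without Control replicate 2 and 1139 without SDY replicates 2, 3 and 4. Genes at a few counts per library, such as th and c8h12orf75, are limited by depth.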
